A study of Mus musculus with 12 samples.

Results

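Tumours of mice treated with GC alone were compared with tumours of IgG control mice, gene by gene, over 6 of the 12 bulk RNA sequencing libraries of the series. The 3 GC libraries and the 3 Control libraries hold total RNA of 425-ICC tumours, a murine model of intrahepatic cholangiocarcinoma (cancer arising from bile ducts within the liver). Tumours were taken after 8 days of treatment. GC is given in the labels as an abbreviation only, and is the field's usual name for gemcitabine plus cisplatin. Control mice received IgG, the antibody control of the checkpoint blockade arms. The other 6 libraries come from ICB (dual immune checkpoint blockade) and Combination (GC with dual ICB) tumours, and enter only where they are named. The labels give no strain, sex, age, dose or schedule, and do not say whether the 3 tumours of a group came from separate animals. P-values therefore measure the spread between these libraries, which may be partly technical.

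Values are FPKM, in which the fragments of a gene are scaled to its length and to the mapped total of the library. Of 24421 gene symbols, 12422 had a mean of at least 1 FPKM over the 6 libraries and were tested. The difference given for a gene is GC minus Control on the log2(FPKM + 1) scale, with its standard error from limma, and this scale understates the change of genes with low values. A gene was called at a Benjamini-Hochberg adjusted p under 0.05. Groups are said not to overlap where every GC library lies on the same side of every Control library.

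Gemcitabine is a nucleoside analogue that cells must import and phosphorylate before it stops DNA synthesis, and cisplatin forms DNA crosslinks that are handled by excision and crosslink repair. Damaged DNA can activate p53 and its target genes, and nucleic acid that reaches the cytosol can start an interferon response, which induces antiviral proteins and the machinery that presents antigen to T cells. Cholangiocarcinoma grows in a dense stroma of fibroblasts, which in the liver come largely from retinoid-storing stellate cells, and it lies within liver parenchyma, so that bulk tumour RNA can also hold hepatocyte transcripts. In bulk RNA, fewer cells of a type and less RNA per cell cannot be told apart, for every list described here.

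Several libraries stood apart within their group. Hepatocyte markers were higher in every GC library: the 6 defining markers summed to 1418, 474 and 4139 FPKM in GC tumours, against 64.9, 51.0 and 7.6 FPKM in Control tumours. Skeletal muscle genes separated GC replicate 2 and Control replicate 2 from the other 4 libraries, with a mean level over 18 genes of 0.90, 6.98 and 1.10 in GC and 0.85, 5.59 and 0.88 in Control on the log2 scale. Control replicate 1 had little of the macrophage lysozyme gene Lyz2 (186 FPKM, against 2909.7 and 6176 FPKM in the other Control libraries), and 3 erythroid markers summed to 1065 FPKM there, against 29.0 and 489 FPKM in the others. The 6 bile duct markers, Krt8 and Krt18 among them, summed to 104, 47.8 and 192 FPKM in GC and 136, 56.4 and 47.3 FPKM in Control, which overlap. Among GC libraries these sums had the order of the hepatocyte markers, and the part of hepatocyte RNA in them was not tested. Sox9, a transcription factor of bile duct cells, was at 35.2, 36.6 and 62.2 FPKM in GC and 91.9, 54.8 and 43.5 FPKM in Control. The epithelial keratin Krt8 was at 21.8, 3.55 and 41.8 FPKM in GC and 6.41, 0.834 and 2.39 FPKM in Control, and the bile duct keratin Krt19 was at 2.56, 1.54 and 7.77 FPKM in GC and 18.2, 0 and 0 FPKM in Control. Sox9 was thus present in every library, whereas the keratins varied between libraries of 1 group. Markers of T cells were near the floor, with 4 genes summing to 0.8, 11.2 and 4.6 FPKM in GC and 1.1, 1.0 and 0.3 FPKM in Control, and those of B cells and pancreatic acinar cells were at or close to 0.

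**Figure D1:**
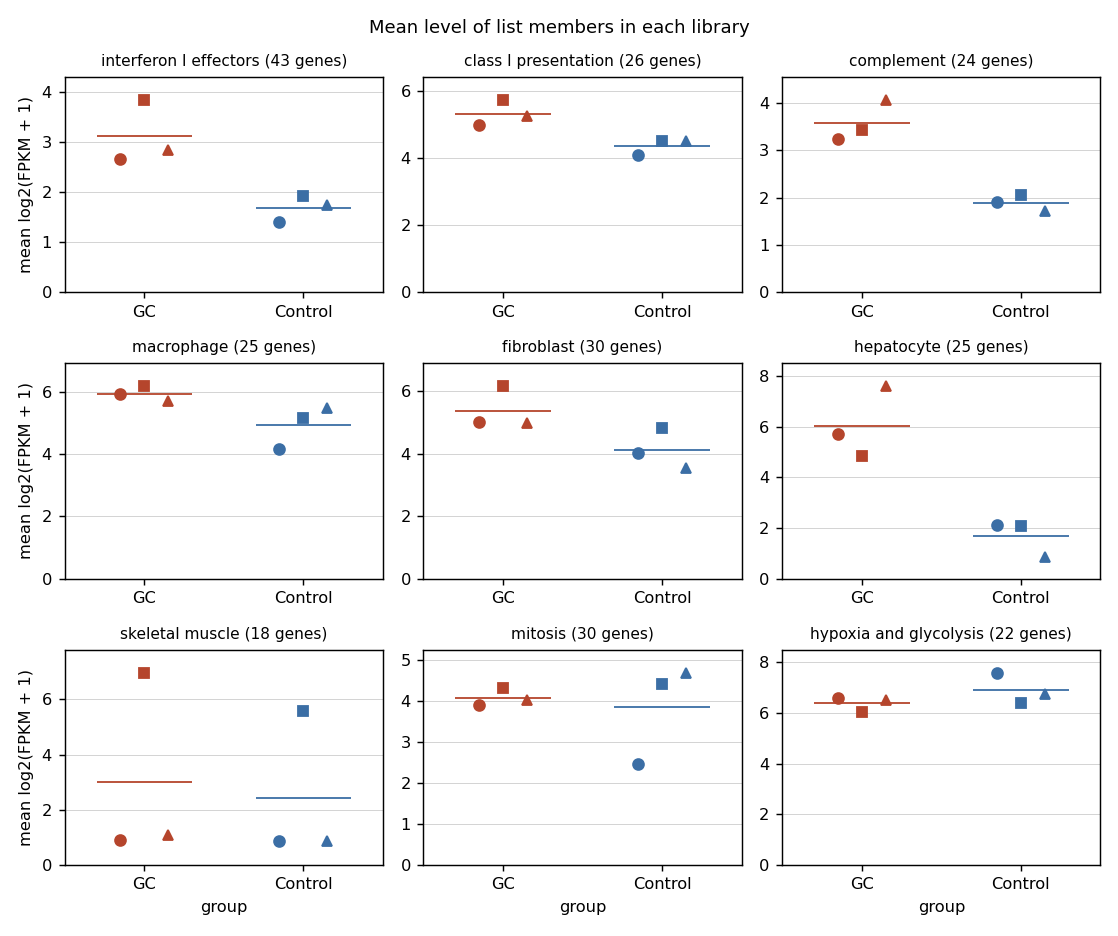
Mean log2(FPKM + 1) over the members of 9 gene lists, 1 panel per list, in each GC library (left, red) and each Control library (right, blue). Circles, squares and triangles are replicates 1, 2 and 3, the horizontal line is the group mean, and each axis starts at 0. The hepatocyte panel shows no overlap between the groups, the skeletal muscle panel shows replicate 2 of both groups far above the rest, and the mitosis panel shows Control replicate 1 at 2.47, below all other libraries.

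Of the 12422 genes, 16 were called higher in GC (0.129%) and 1 lower (0.00805%). The genes that rose included Cygb, a gene of stellate cells and fibroblasts, 3 Ear ribonuclease genes of the myeloid lineage, the iron genes Slc40a1 and Hamp, and liver metabolic genes. At an unadjusted p under 0.05 there were 1711 genes higher (13.8%) and 619 lower (4.98%). GC lay wholly above Control for 2220 genes (17.9%) and wholly below it for 1194 (9.61%), and these shares are the background for every list below. Leaving out 1 library, with fewer libraries to separate, gave between 19.5% and 25.8% above and between 11.2% and 23.3% below. The 23.3% was without Control replicate 1, and the share below was at most 15.4% without any other library. The median difference over all genes was 0.08. The count of calls rests on which libraries estimate the spread. With the 3 ICB libraries added to the fit, 435 genes were called higher (3.5%) and 33 lower (0.266%), all 17 genes among them. With all 12 libraries only 1 gene, Cygb, was called. No gene described below as called with the ICB libraries in the fit was called with all 12. Leaving out 1 library at a time gave 2 genes higher (without GC replicate 1) to 106 (without GC replicate 2), and Rps27, Rps27rt and Gstp2 were called in each of these fits while every other call was lost without GC replicate 1.

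Cygb encodes cytoglobin, a haem protein of hepatic stellate cells and fibroblasts, at chr11:116645595-116654313 on the minus strand of GRCm38 (GENCODE M21 annotation). It was at 35.6, 35.1 and 46.4 FPKM in GC tumours, against 6.37, 5.20 and 3.30 FPKM in Control tumours. The groups were far apart against the spread within them, with means of 39.1 ± 6.38 FPKM in GC and 4.96 ± 1.55 FPKM in Control (SD, n = 3 each). Cygb rose by 2.77 ± 0.25 (SE, limma adjusted p = 0.0218).

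Slc40a1 and Hamp, both called, encode proteins of iron handling, for which no list was drawn up. Slc40a1 encodes ferroportin, which exports iron from macrophages, gut and liver cells, and Hamp encodes hepcidin, the liver hormone that removes ferroportin from the cell surface. Slc40a1 (chr1:45908068-45926523, minus strand) was at 4.20, 4.53 and 6.21 FPKM in GC, against 0, 0.358 and 0.188 FPKM in Control, and rose by 2.33 ± 0.26 (limma adjusted p = 0.035). Hamp (chr7:30942368-30944032, minus strand) was at 94.4, 25.6 and 136 FPKM in GC, against 0.755, 2.00 and 0 FPKM in Control, and rose by 5.34 ± 0.65 (limma adjusted p = 0.049). Hamp was lowest of the GC libraries in replicate 2, which also had the lowest hepatocyte level of the 3, and the part of hepatocyte RNA in its rise was not tested. Sepp1 encodes selenoprotein P, a plasma selenium carrier made mainly by liver. It was at 312, 432 and 401 FPKM in GC, against 109.8, 101 and 115 FPKM in Control, and rose by 1.79 ± 0.19 (limma adjusted p = 0.035).

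The Ear genes encode secreted ribonucleases named for mouse eosinophils and also made by macrophages. Ear2 was at 64.7, 80.4 and 80.0 FPKM in GC, against 12.8, 13.1 and 20.0 FPKM in Control, and rose by 2.24 ± 0.22 (limma adjusted p = 0.0288). Ear1 was at 86.4, 77.5 and 109 FPKM in GC and 23.3, 18.9 and 27.0 FPKM in Control, with a difference of 1.93 ± 0.21, and Ear3 was at 303, 269.8 and 355 FPKM in GC and 76.8, 65.6 and 99.5 FPKM in Control, with a difference of 1.94 ± 0.21 (limma adjusted p = 0.035 for both). These genes are close copies of each other, so reads may be shared between them, and the 3 calls cannot be read as independent. The sum of macrophage markers was also higher in GC. The 4 defining markers summed to 641, 1182 and 783 FPKM in GC and 134, 461 and 502 FPKM in Control, which do not overlap. That separation rests on C1qa, which made up most of each GC sum and whose values are given below. None of the 4 markers was at 0 in any library. Of the GC libraries, replicate 2 had the highest marker sum and Ear2 but the lowest Ear1 and Ear3. The part of macrophage RNA in the Ear calls was not tested. Among the 4, Adgre1 overlapped, at 12.8, 34.4 and 9.39 FPKM in GC and 2.64, 19.6 and 15.0 FPKM in Control.

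Genes of hepatocyte metabolism made up the next group of calls. Pck1 (gluconeogenesis) was at 9.16, 12.3 and 27.5 FPKM in GC, against 0.284, 0.944 and 0 FPKM in Control, and rose by 3.53 ± 0.43 (limma adjusted p = 0.049). Adh1 (alcohol dehydrogenase) rose by 4.86 ± 0.57 and Apoc1 (an apolipoprotein) by 5.71 ± 0.70 (limma adjusted p = 0.0478 for Adh1 and 0.049 for Apoc1). All were highest in GC replicate 3, as was Alb (albumin), which was at 441, 174 and 893 FPKM in GC and 35.2, 24.1 and 2.95 FPKM in Control. Over the hepatocyte list, 23 of 24 tested genes lay wholly above Control, 1 (Pck1) was called, and the median difference was 4.84, against 0.08 over all genes. With the mean hepatocyte level of each library as a covariate, no gene was called by limma in either direction, the lowest adjusted p was 0.25, and 500 genes had an unadjusted p under 0.05. That covariate was 4.82 to 7.59 in GC and 0.87 to 2.11 in Control and left 3 residual degrees of freedom, so it could hardly be separated from the groups and the loss of calls does not say what part hepatocyte RNA had. Hepatocyte content and treatment cannot be told apart in these libraries.

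Some calls are uncertain because of near-identical copies. Rps27, a ribosomal protein gene, was the 1 gene that fell: it was at 17.7, 18.9 and 16.1 FPKM in GC, against 10023, 4505 and 7167 FPKM in Control (difference -8.53 ± 0.30, limma adjusted p = 0.000122). Its intronless copy Rps27rt ran the other way, at 7345, 4387 and 5319.8 FPKM in GC, against 92.5, 35.4 and 56.9 FPKM in Control (difference 6.58 ± 0.37, limma adjusted p = 0.00128). Summed over both copies, the values were 7363, 4406 and 5336 FPKM in GC and 10115, 4540.5 and 7224 FPKM in Control, which overlap, and 1 of the 6 libraries of the other arms (ICB replicate 1) showed the same swap. Gstp2, a glutathione transferase, was at 91.0, 98.2 and 181 FPKM in GC and listed at 0 in every Control library (limma adjusted p = 0.000182), as it was in 3 of the 6 libraries of the other arms. Its copy Gstp1 was at 163, 151 and 315 FPKM in GC and 177, 143 and 146 FPKM in Control. The sum of both was 254, 249 and 496 FPKM in GC and 177, 143 and 146 FPKM in Control. Abhd11os and BC021614 have little annotation: Abhd11os, listed as a transcribed pseudogene, was at 8.92, 16.0 and 8.90 FPKM in GC and 0, 0 and 0.478 FPKM in Control (difference 3.38 ± 0.31, limma adjusted p = 0.0218), and BC021614, known by a clone name, had a difference of 4.08 ± 0.42 (limma adjusted p = 0.0348).

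**Figure D2:**
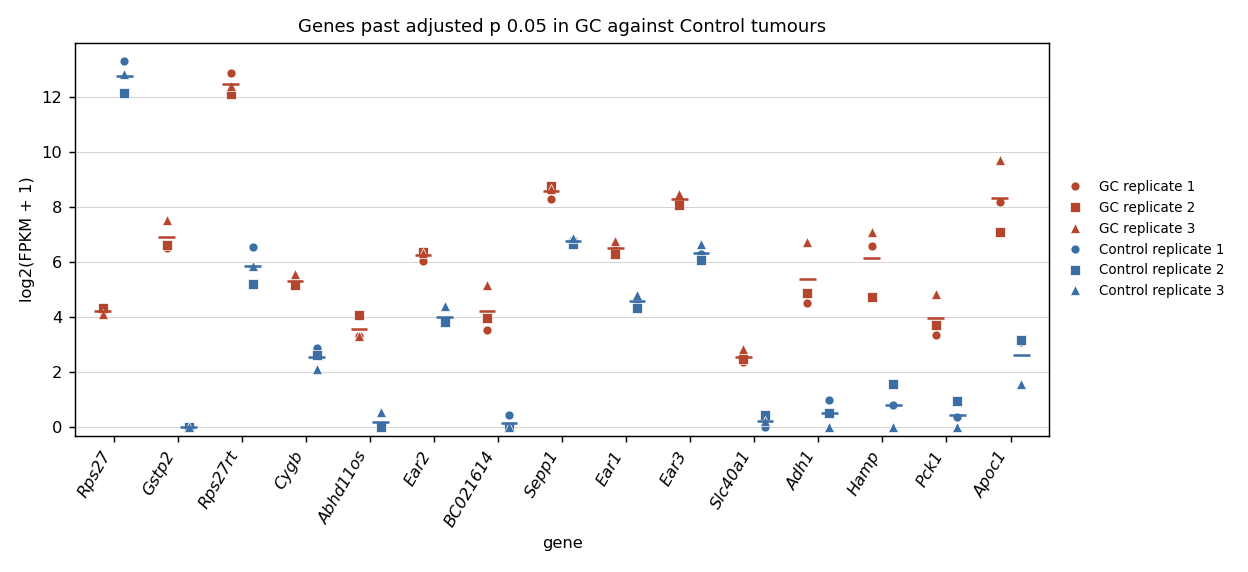
The genes past an adjusted p of 0.05 that are named in the text, ordered by p, with log2(FPKM + 1) in each GC library (red, left of each pair) and each Control library (blue, right). Marker shape gives the replicate and the short line the group mean. Cygb, Sepp1 and the Ear genes show tight groups, the liver genes Adh1, Pck1, Apoc1 and Hamp spread widely among GC libraries, and Rps27 and Rps27rt mirror each other.

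Interferon-inducible genes lay above Control almost throughout. Of 38 tested effectors of type I interferon, 31 (81.6%) lay wholly above Control, none lay wholly below it, 37 had a positive difference, and the median difference was 1.53 against 0.08 over all genes. The exception in sign was Isg20, an RNA exonuclease, at 11.2, 10.7 and 9.54 FPKM in GC and 23.4, 10.2 and 12.1 FPKM in Control. None was called in the fit of the 6 libraries, where 32 had an unadjusted p under 0.05 by limma. With the ICB libraries in the fit 19 of the 38 were called, all higher, and with all 12 libraries in the fit none was. GC replicate 2 was the highest library in the mean log2 level over the 43 listed genes, which was 2.66, 3.85 and 2.86 in GC and 1.41, 1.92 and 1.75 in Control.

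The promoters of these genes were searched for a known interferon element. Interferon signalling acts through a tandem GAAA element, searched here as GAAA, any 2 bases and GAAA on both strands, overlaps counted, from 250 bases before to 50 bases after each RefSeq start site. It was present in 3.44% of 32851 windows and in 3.8% of the 9275 tested genes with a window, but in 13 of 26 type I effectors with a window (50%), the other 13 holding none, and 10 of 14 genes of the type II and GTPase list (71.4%). Among class I presentation genes it was in 5 of 21 (23.8%). Among complement genes it was in 1 of 13 (7.69%), and among macrophage genes in 1 of 16 (6.25%). It was found in none of the 19 hepatocyte genes, none of the 15 fibroblast genes and none of the 8 genes called higher that had a window. Sets of this size are too small to tell a count of 0 or 1 from the 3.8% of tested genes. A match is a stretch of letters, not a measured binding site. The 250 bases before the start are printed for the 4 type I effectors of smallest p that hold a match and for the class I gene B2m, from RefSeq on GRCm38.p6, 5′ to 3′ on the strand of the gene, with matches in capitals (TTTC, any 2 bases and TTTC where the match is on the other strand). Isg15 lies at chr4:156200819-156201068 (minus strand), Oas1g at chr5:120887614-120887863 (minus), Ifit1 at chr19:34640639-34640888 (plus), Ifit3 at chr19:34583279-34583528 (plus) and B2m at chr2:122147437-122147686 (plus).
Isg15: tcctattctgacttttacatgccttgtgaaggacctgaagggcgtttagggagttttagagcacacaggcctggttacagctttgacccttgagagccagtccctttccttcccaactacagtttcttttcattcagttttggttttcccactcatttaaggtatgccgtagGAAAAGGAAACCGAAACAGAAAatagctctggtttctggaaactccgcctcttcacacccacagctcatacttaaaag
Oas1g: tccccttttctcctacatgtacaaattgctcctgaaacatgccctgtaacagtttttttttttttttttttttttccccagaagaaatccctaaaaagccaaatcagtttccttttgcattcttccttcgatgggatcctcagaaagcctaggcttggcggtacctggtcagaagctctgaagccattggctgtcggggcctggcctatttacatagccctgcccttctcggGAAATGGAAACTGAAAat
Ifit1: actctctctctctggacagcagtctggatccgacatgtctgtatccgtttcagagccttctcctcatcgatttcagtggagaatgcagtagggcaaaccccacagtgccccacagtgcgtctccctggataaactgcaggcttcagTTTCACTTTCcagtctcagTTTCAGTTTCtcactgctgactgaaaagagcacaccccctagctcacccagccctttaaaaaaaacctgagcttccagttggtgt
Ifit3: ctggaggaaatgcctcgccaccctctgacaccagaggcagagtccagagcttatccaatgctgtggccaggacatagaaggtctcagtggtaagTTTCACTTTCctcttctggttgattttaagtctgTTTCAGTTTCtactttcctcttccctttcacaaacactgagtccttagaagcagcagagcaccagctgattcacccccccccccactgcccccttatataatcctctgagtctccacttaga
B2m: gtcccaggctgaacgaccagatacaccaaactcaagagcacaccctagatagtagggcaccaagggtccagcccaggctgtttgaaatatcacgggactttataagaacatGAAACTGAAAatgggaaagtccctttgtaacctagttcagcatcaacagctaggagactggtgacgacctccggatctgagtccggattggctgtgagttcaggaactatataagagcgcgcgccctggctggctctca
Isg15 held 3 overlapping matches starting 78 bases before the start site, Ifit1 and Ifit3 held 2 separate matches each on the opposite strand, Oas1g held 2 overlapping matches next to its start, and B2m held 1.

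Isg15 encodes a ubiquitin-like protein that is attached to other proteins after interferon. It was at 26.4, 70.2 and 34.6 FPKM in GC, against 4.42, 5.18 and 2.64 FPKM in Control, and the groups were far apart: the difference was 3.05 ± 0.38, with a limma adjusted p of 0.0516 in the 6 libraries and 0.0209 with the ICB libraries in the fit. Oas1g, an antiviral oligoadenylate synthetase, was at 3.74, 10.4 and 6.02 FPKM in GC and 0, 0.688 and 0.393 FPKM in Control. Ifit1, which binds foreign RNA ends, was at 4.12, 11.4 and 3.85 FPKM in GC and 0.243, 0.418 and 0 FPKM in Control. Its relative Ifit3 was at 6.31, 25.5 and 9.19 FPKM in GC and 0, 1.43 and 0.259 FPKM in Control, and Ifit3 has a close copy that may share its reads. Their differences were 2.44 ± 0.38, 2.48 ± 0.40 and 3.11 ± 0.54, with limma adjusted p-values of 0.0691, 0.0691 and 0.0721. Bst2, a membrane tether of budding virus, was the most abundant of those named, at 57.7, 187 and 114 FPKM in GC and 20.0, 27.2 and 26.2 FPKM in Control.

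Upstream of these effectors, the regulators differed less as a list. Of 17 tested interferon regulators, 7 (41.2%) lay wholly above Control and the median difference was 0.38, and Irf7, the factor that amplifies type I interferon, was at 11.4, 70.6 and 17.2 FPKM in GC and 1.06, 4.31 and 0.934 FPKM in Control. Of 16 nucleic acid sensors, 9 lay wholly above and 1 wholly below, with a median of 0.84, or 0.51 without GC replicate 2 and 0.56 without Control replicate 1. In the list of genes induced by type II interferon and of immune GTPases, 12 of 19 lay wholly above Control, with a median of 1.25, or 0.83 without GC replicate 2. Iigp1, a GTPase that attacks the vacuoles of intracellular parasites, was at 5.28, 14.5 and 7.89 FPKM in GC and 0.095, 2.00 and 0.0944 FPKM in Control. Cxcl10, the T cell chemokine of this response, overlapped, at 2.94, 16.9 and 5.34 FPKM in GC and 0.72, 4.42 and 0.351 FPKM in Control. The interferon genes themselves were scarcely measured: Ifnb1 was at 0, 0.0987 and 0.165 FPKM in GC and 0, 0 and 0.064 FPKM in Control, and Ifng was listed at 0 in all GC libraries and at 0, 0.246 and 0 FPKM in Control.

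**Figure D3:**
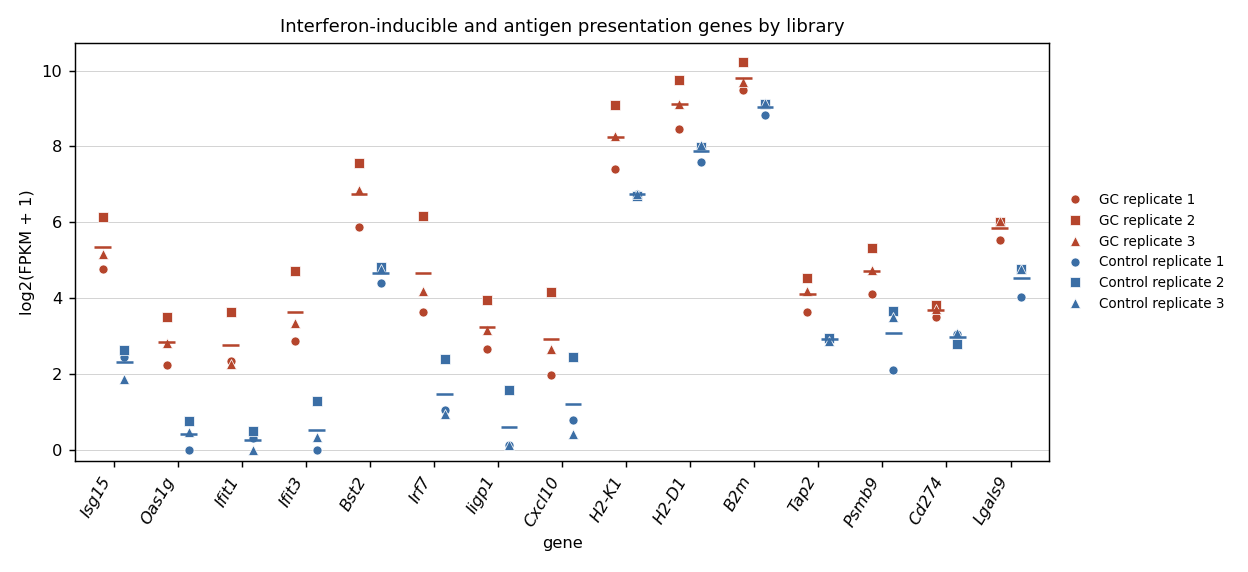
Interferon-inducible, antigen presentation and checkpoint ligand genes, with log2(FPKM + 1) in each GC library (red, left of each pair) and each Control library (blue, right). Marker shape gives the replicate and the short line the group mean. The groups overlap for Cxcl10 only, and GC replicate 2 (squares) is the highest GC library for Isg15, Ifit1, Irf7, H2-K1 and B2m.

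Antigen presentation genes were also higher. All 26 tested class I genes had a positive difference, 14 (53.8%) lay wholly above Control and none below, and the median was 0.84, or 0.55 without GC replicate 2. H2-K1 and H2-D1 encode the classical class I heavy chains of the mouse. H2-K1 was at 169.7, 539.9 and 309.8 FPKM in GC, against 107, 103 and 107 FPKM in Control, and H2-D1 was at 352, 856 and 552 FPKM in GC, against 192, 254 and 264 FPKM in Control. B2m, the light chain, was at 713, 1193 and 836 FPKM in GC and 454, 556 and 561 FPKM in Control. Within each of these genes GC replicate 2 was the highest, and their differences of 1.52 ± 0.39, 1.23 ± 0.33 and 0.77 ± 0.24 had limma adjusted p-values of 0.113, 0.127 and 0.167. The peptide transporter Tap2 was at 11.4, 22.3 and 17.2 FPKM in GC and 6.54, 6.79 and 6.31 FPKM in Control, and the immunoproteasome subunit Psmb9 was at 16.3, 38.9 and 25.5 FPKM in GC and 3.28, 11.6 and 10.4 FPKM in Control. With the ICB libraries in the fit, Tap2, H2-T10 and H2-Q10 were called among the 26. Class I heavy chain genes resemble each other, so the split of reads between them is uncertain. Of 9 class II genes, 4 lay wholly above Control with a median of 1.49, and 0.90 without Control replicate 1. The class II invariant chain Cd74 overlapped, at 117, 122 and 318 FPKM in GC and 11.5, 134 and 56.5 FPKM in Control.

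Ligands of immune checkpoints lay on the same side. Of 13 tested, 8 (61.5%) lay wholly above Control and none below, with a median of 0.73. Without Control replicate 1 the median was 0.40 and 1 gene lay wholly below, where 23.3% of all genes did. Cd274, which encodes PD-L1, was at 10.3, 13.02 and 12.2 FPKM in GC, against 7.28, 5.98 and 7.55 FPKM in Control (difference 0.69 ± 0.18, limma adjusted p = 0.122). Lgals9, the galectin that binds TIM-3, was at 45.4, 63.6 and 64.2 FPKM in GC and 15.5, 26.4 and 26.1 FPKM in Control (difference 1.33 ± 0.26, limma adjusted p = 0.0736). Fgl1, a LAG-3 ligand that hepatocytes secrete, followed the hepatocyte order, at 63.5, 9.19 and 174 FPKM in GC and 0.354, 0 and 0 FPKM in Control. Lgals9, Fgl1 and Cd200 were called with the ICB libraries in the fit.

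Lymphocyte genes were mostly below the filter of 1 FPKM. Of 21 listed T cell genes 3 were tested, and of 16 cytotoxic genes 3 were tested. Cd3e, a T cell receptor subunit, was at 0, 2.40 and 0.901 FPKM in GC and 0.621, 0.206 and 0 FPKM in Control, and Cd8a was below 0.25 FPKM in all 6 libraries. Ccl5, a chemokine of T cells and myeloid cells, was at 6.42, 28.0 and 15.5 FPKM in GC, against 1.44, 2.86 and 0.929 FPKM in Control (difference 2.54 ± 0.51, limma adjusted p = 0.0758). Lat, which relays T cell receptor signals, was at 2.46, 3.34 and 2.66 FPKM in GC, against 0.812, 0.384 and 0.179 FPKM in Control (difference 1.41 ± 0.27, limma adjusted p = 0.0736). The cytotoxic list had its highest mean in GC replicate 2, at 1.45 on the log2 scale, against 0.35 and 0.64 in the other GC libraries and 0.10, 0.26 and 0.10 in Control.

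Myeloid genes differed by kind. Macrophage genes lay wholly above Control in 7 of 23 (30.4%) with a median of 1.00, or 0.50 without Control replicate 1, and none of 10 monocyte genes separated the groups. Apoe, the apolipoprotein of macrophages and hepatocytes, was at 2309, 4960.0 and 4317 FPKM in GC, against 771, 827 and 783 FPKM in Control (difference 2.21 ± 0.31, limma adjusted p = 0.0589). Lpl, the lipase that frees fatty acids from lipoproteins, was at 17.1, 24.9 and 22.5 FPKM in GC, against 3.24, 4.30 and 6.35 FPKM in Control (difference 2.02 ± 0.26, limma adjusted p = 0.0538). C1qa, a complement subunit made by tissue macrophages, was at 459, 931 and 623 FPKM in GC and 54.8, 293 and 325 FPKM in Control. Mature dendritic cell genes lay wholly above Control in 7 of 14 with a median of 1.05, or 0.50 without Control replicate 1. Among them, Ccr7, the receptor that guides migration to lymph nodes, was at 3.04, 2.23 and 3.79 FPKM in GC and 0.501, 0.877 and 0.628 FPKM in Control, and Ccl22, a chemokine that attracts regulatory T cells, was at 2.30, 5.48 and 6.09 FPKM in GC and 0.493, 0.722 and 0.265 FPKM in Control. Neutrophil genes separated in 3 of 15, close to the background of 17.9%.

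Complement genes had the largest share of members above Control after the hepatocyte list, among lists with at least 10 tested genes. Of 21 tested, 19 (90.5%) lay wholly above Control, with a median of 1.87. Cfb, a protease of the alternative pathway, was at 32.7, 33.1 and 78.4 FPKM in GC, against 1.17, 6.37 and 1.70 FPKM in Control (difference 3.68 ± 0.53, limma adjusted p = 0.0589). Serping1, the inhibitor of the first complement proteases, was at 146, 215 and 206 FPKM in GC, against 66.6, 46.3 and 17.1 FPKM in Control (difference 2.27 ± 0.46, limma adjusted p = 0.077). C3, the central component, was at 84.8, 65.9 and 219 FPKM in GC and 27.4, 19.0 and 4.58 FPKM in Control. Liver is the main source of circulating complement, and the hepatocyte markers were also higher in every GC library. Among GC libraries, replicate 2 had the lowest mean hepatocyte level but not the lowest mean complement level. The part of hepatocyte RNA in this list was not tested.

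The medians of the fibroblast and stellate cell lists were above those of the matrix lists. Of 30 fibroblast genes, 1 (Cygb) was called, 13 (43.3%) lay wholly above Control and 2 wholly below, with a median of 1.18. Of 9 stellate cell genes, 2 were called, Cygb among them, and 5 lay wholly above Control, with a median of 1.60. Of 23 collagens, 7 (30.4%) lay wholly above Control and 3 (13%) wholly below, with a median of 0.49 that ran from 0.19 without Control replicate 3 to 1.00 without Control replicate 2. Of 13 matrix proteoglycans, 4 lay wholly above and 1 wholly below, with a median of 0.27 that was -0.04 without GC replicate 2, and of 29 crosslinking enzymes and glycoproteins 6 (20.7%) lay wholly above, near the background, with a median of 0.39, or 0.20 without GC replicate 2. Col1a1, the main chain of fibrillar collagen, was at 864, 1683 and 1113 FPKM in GC, against 357, 493 and 227 FPKM in Control (difference 1.78 ± 0.36, limma adjusted p = 0.0764). Col15a1, a collagen of basement membranes, was at 63.9, 58.8 and 68.8 FPKM in GC, against 9.98, 27.8 and 14.6 FPKM in Control (difference 1.93 ± 0.34, limma adjusted p = 0.0721). By contrast Col4a6, a basement membrane chain of epithelium, was lower, at 4.11, 1.23 and 3.94 FPKM in GC and 6.46, 10.4 and 10.5 FPKM in Control, and the shared fibroblast receptors Pdgfra and Pdgfrb overlapped between the groups. Islr, Ccdc80 and Cthrc1, matrix-associated proteins of fibroblasts, had differences of 1.77 ± 0.27, 1.75 ± 0.26 and 3.46 ± 0.72 and were called, with Col1a1 and Col3a1, in the fit that held the ICB libraries.

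Vim and Ogn were lower in every GC library than in any Control library. Vim, the intermediate filament of mesenchymal cells and of mesenchyme-like tumour cells, was at 1226, 1124 and 1063 FPKM in GC, against 2519, 2190.1 and 1785 FPKM in Control (difference -0.92 ± 0.22, limma adjusted p = 0.0995). Ogn, a small matrix proteoglycan, was at 3.67, 4.04 and 2.87 FPKM in GC, against 8.22, 9.45 and 15.0 FPKM in Control (difference -1.36 ± 0.26, limma adjusted p = 0.0736). Both were called lower with the ICB libraries in the fit (limma adjusted p = 0.0421 for Vim and 0.0281 for Ogn). Wnt4, a ligand active in stromal and epithelial crosstalk, was at 10.1, 12.7 and 18.5 FPKM in GC, against 2.00, 0.0997 and 0.422 FPKM in Control (difference 3.10 ± 0.41, limma adjusted p = 0.0556). Of 22 WNT genes, 5 lay wholly above Control and 2 wholly below, near the background.

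No gene of the lists tied to the action of the drugs was called. Of 32 p53 targets, 7 (21.9%) lay wholly above Control and 2 wholly below, near the background, and none was called. The median was 0.42, or 0.24 without GC replicate 2 and 0.28 without Control replicate 1. Cdkn1a, the p53-induced brake on the cell cycle, was at 71.8, 100.04 and 83.5 FPKM in GC and 110.0, 37.9 and 34.7 FPKM in Control, where Control replicate 1 was the highest library of all. Mdm2, which degrades p53 and is its target, was at 24.7, 24.7 and 20.7 FPKM in GC and 21.7, 21.8 and 16.4 FPKM in Control. Fas, the death receptor, was the member of smallest p, at 3.79, 5.90 and 5.43 FPKM in GC, against 0.866, 1.45 and 1.84 FPKM in Control (difference 1.35 ± 0.26, limma adjusted p = 0.0736, and 0.0244 with the ICB libraries in the fit). Of 28 apoptosis genes, 10 (35.7%) lay wholly above and 2 wholly below. The median was 0.44, or 0.29 without GC replicate 2 and 0.26 without Control replicate 1, with Bax, the mitochondrial pore former, at 100.4, 117 and 112 FPKM in GC and 74.7, 90.8 and 88.2 FPKM in Control.

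Proliferation genes depended on 1 Control library. None of 30 mitosis genes separated the groups, with a median of 0.24. Of 30 S phase genes 3 (10%) lay wholly below Control, at about the background share, and none wholly above, with a median of 0.11. Control replicate 1 had a mean mitosis level of 2.47, against 4.41 and 4.69 in the other Control libraries and 3.89, 4.31 and 4.03 in GC. Without it, 19 of 30 mitosis genes and 19 of 30 S phase genes lay wholly below Control, where 23.3% of all genes did, and the medians were -0.46 and -0.39. Mki67, the proliferation antigen, was at 9.11, 15.8 and 10.3 FPKM in GC and 1.84, 16.5 and 20.5 FPKM in Control. Rfc4, which loads the replication clamp, was lower in every GC library, at 13.4, 11.4 and 12.9 FPKM in GC and 16.2, 20.8 and 25.7 FPKM in Control (difference -0.67 ± 0.21, limma adjusted p = 0.162).

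Among 22 genes that import, activate or inactivate gemcitabine, 4 lay wholly above Control and 1 wholly below, at about the background share. Cda, the deaminase that inactivates gemcitabine, was the 1 below, at 22.5, 13.6 and 26.5 FPKM in GC and 41.3, 31.5 and 31.4 FPKM in Control (difference -0.75 ± 0.27, limma adjusted p = 0.208). Samhd1, a triphosphohydrolase of nucleotides that interferon also induces, was at 25.7, 47.4 and 33.5 FPKM in GC and 8.55, 21.3 and 20.6 FPKM in Control. The activating kinase Dck was at 6.44, 9.64 and 6.40 FPKM in GC and 3.80, 8.85 and 9.70 FPKM in Control. In the platinum list, 4 of 22 lay wholly above and 2 wholly below: Abcc1, an export pump for glutathione conjugates, was at 20.8, 24.8 and 19.6 FPKM in GC and 33.8, 31.4 and 31.7 FPKM in Control, and the glutathione transferase Gsta4 was at 11.9, 8.62 and 16.5 FPKM in GC and 25.6, 17.7 and 31.7 FPKM in Control. Targets of the oxidant-sensing factor NRF2 lay wholly above Control in 9 of 20 (45%) and wholly below in 1, with a median of 0.27. The count above was 6 after median-ratio scaling and 5 after quantile normalization, where 16.3% and 11.6% of all genes lay wholly above.

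DNA repair lists had medians below 0, and their counts depended on Control replicate 1. Of 30 genes of excision and crosslink repair, none lay wholly above Control and 8 (26.7%) lay wholly below, with a median of -0.13, and of 29 genes of double-strand break repair and checkpoints 3 (10.3%, the background being 9.61%) lay wholly below and none above, with a median of -0.19. Without Control replicate 1, 16 of 29 and 24 of 29 lay wholly below, where 23.3% of all genes did. After median-ratio scaling the counts were 7 and 11, where 13.5% of all genes lay wholly below. Ddb1, which recognises damaged DNA with a partner, was at 150.0, 144 and 145 FPKM in GC, against 200.3, 231 and 196 FPKM in Control (difference -0.51 ± 0.16, limma adjusted p = 0.165). Apex1, the endonuclease of base excision repair, is in neither list, and the lowest differences in the lists were -0.663 and -0.564. Apex1 was among the genes of smallest p that were lower, at 22.7, 18.5 and 25.3 FPKM in GC, against 44.3, 66.6 and 53.8 FPKM in Control (difference -1.26 ± 0.21, limma adjusted p = 0.0695). With the ICB libraries in the fit, Apex1 was called lower (limma adjusted p = 0.0243). Ercc1, an endonuclease of cisplatin adduct repair, differed by -0.13 ± 0.15. With the muscle-rich pair of libraries (replicate 2 of both groups) left out, the excision repair median was 0.015, against 0.105 over all genes.

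Hypoxia and glycolysis genes and ribosomal protein genes had the lowest medians. Of 22 hypoxia and glycolysis genes, 21 had a negative difference and 5 (22.7%) lay wholly below Control, with a median of -0.52, or -0.26 without Control replicate 1. Slc2a1, the glucose transporter of hypoxic tumours, was at 99.7, 51.6 and 83.6 FPKM in GC, against 281, 110.2 and 137 FPKM in Control (difference -1.09 ± 0.39, limma adjusted p = 0.212). All 32 ribosomal protein genes had a negative difference and 8 (25%) lay wholly below Control, with a median of -0.52, or -0.31 without GC replicate 2. Rpl3, a large subunit protein, was at 1154, 791 and 1036 FPKM in GC and 1754, 1276 and 1701 FPKM in Control. FPKM are shares of a library, and the share of genes wholly above Control among those that did not overlap was 65% in the values as deposited, 54.7% after median-ratio scaling and 36.5% after quantile normalization. Atf3, a stress-induced transcription factor, was at 7.45, 7.18 and 8.74 FPKM in GC, against 30.7, 15.8 and 19.6 FPKM in Control (difference -1.34 ± 0.26, limma adjusted p = 0.0736). With the ICB libraries in the fit, Atf3 was called lower (limma adjusted p = 0.03635).

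**Figure D4:**
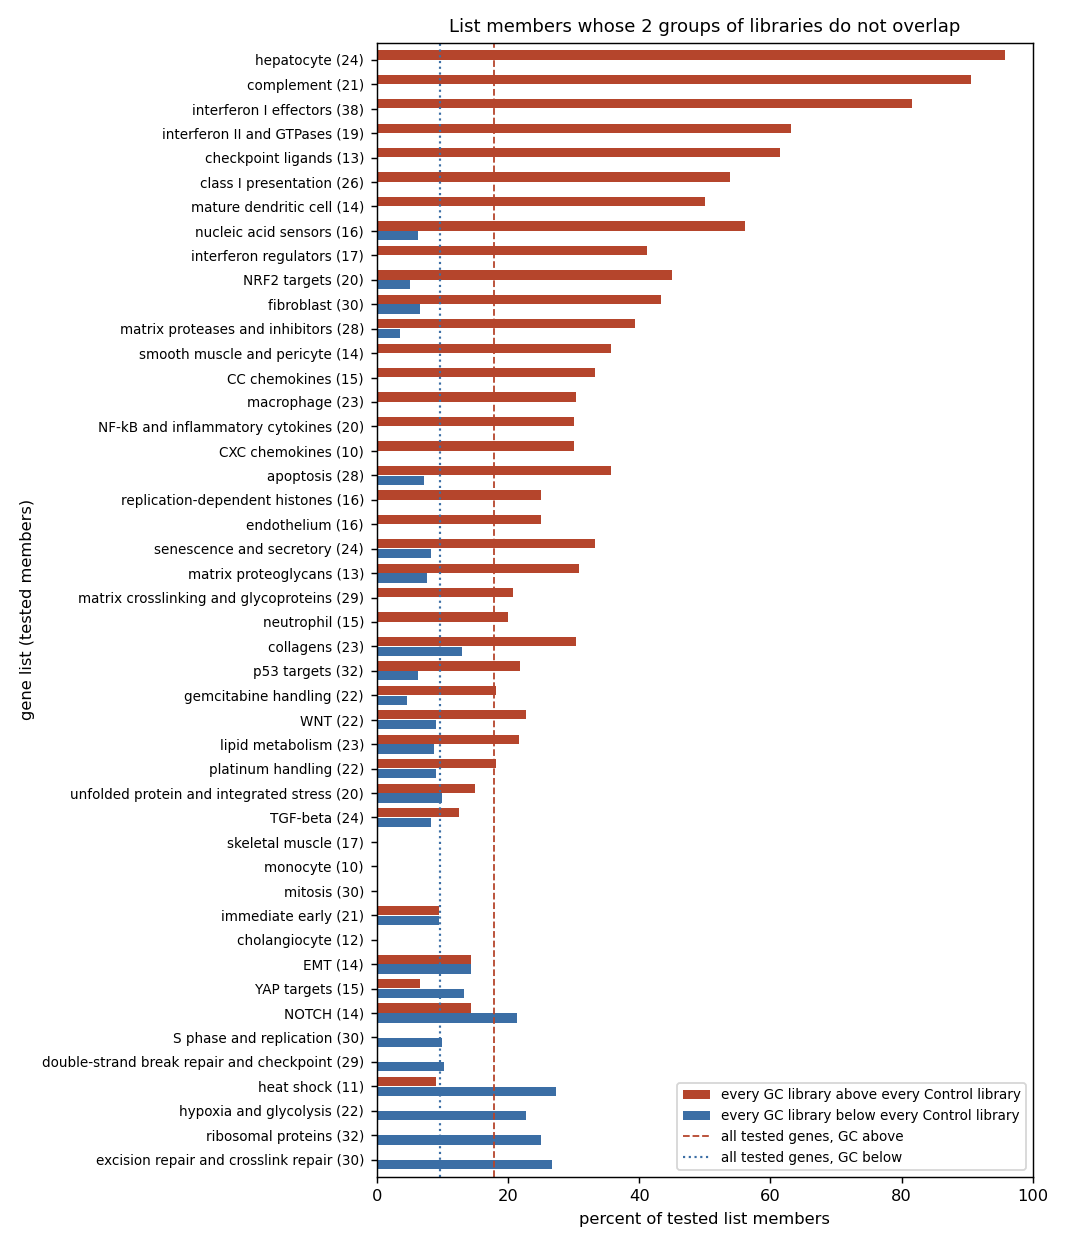
Share of the tested members of each gene list whose GC libraries all lie above (red) or all lie below (blue) the Control libraries, for lists with at least 10 tested members, given in brackets. The dashed and dotted lines are the same shares over all 12422 genes, 17.9% above and 9.61% below. The hepatocyte, complement and type I interferon effector lists reach the furthest above, at 95.8%, 90.5% and 81.6%. The repair, ribosomal protein, hypoxia, heat shock, NOTCH, YAP target and S phase lists have more members wholly below than wholly above. Of these, the heat shock, NOTCH and S phase lists had median differences above 0, at 0.33, 0.47 and 0.11.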

How the data were processed

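Per the labels' protocols, total RNA of the tumours (12 libraries) was sequenced in bulk after stranded Qiagen library preparation. Values used are FPKM as deposited by the authors, 1 per gene symbol and library. The tools named in the submitters' processing notes are HISAT2, HTSeq, SAMtools, cutadapt and FastQC, and the build is mm10. Versions, the step that made FPKM and the use of strand in counting are not given in the sources used here, so reads of antisense or overlapping neighbours may be mixed. The smallest values did not fall on whole-read steps (over 15 pairs of libraries the fullest bin of log2 ratios held a median of 10.1% of genes), so depth is unknown and no count model was used. FPKM summed to 558450 to 660067 per library.

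Samples were grouped by title, with replicate numbers from the titles, and 0 columns were unmapped. Genes averaging 1 FPKM or more over the 6 GC and Control libraries were tested as log2(FPKM + 1) with limma 3.58.1 in R 4.3.3 (empirical Bayes with intensity trend, two-sided, 4 residual degrees of freedom before moderation), adjusted by Benjamini-Hochberg over all 12422 genes. No set test was run. Some called genes are not reported here by name. The 59 gene lists are described by counts and medians beside those of all genes: of 1283 entries 1275 were found, 13 by an older symbol. Members and lists were chosen with earlier results of these data known, and support nothing as independent evidence. Named genes are those of smallest p or largest difference among genes whose groups do not overlap and whose higher group mean is at least 5 FPKM, up to 4 members of smallest p per list, and a fixed set. Outside that rule, and after their values were seen, Slc40a1 and BC021614 are named as called genes, Gstp1 as the copy of Gstp2, and Bax, C3, Cd74, Ercc1, Ifnb1, Ifng, Isg20, Lyz2, Pdgfra, Pdgfrb, Psmb9 and Serping1 as members or markers. Gene coordinates are from GENCODE M21 (GRCm38) and promoters from RefSeq (GRCm38.p6). Alternatives are a shared spread with other arms, other scalings, filters and pseudocounts, array weights, tissue covariates, a replicate block and leaving out libraries.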

Additional observations from a re-analysis of the deposited data

How the results depend on the processing

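The count of genes called higher, 16, was 1 with all 12 libraries in the fit, 435 with 9 libraries (ICB added), 382 with array weights, 9 after median-ratio scaling, 5 after quantile normalization, 2 with no filter on low values, 26 with a mean of at least 10 FPKM, 0 with the hepatocyte covariate and 56 with the skeletal muscle covariate. The count of genes lower, 1, was 0, 33 and 59 in the first 3 of these fits and 0 with the hepatocyte covariate. Leaving out 1 library at a time gave 2 to 106 genes higher (2 without GC replicate 1, 3 and 4 without Control replicates 2 and 3, 106 without GC replicate 2) and 1 gene lower. With the muscle-rich pair left out, a choice made after seeing the data, 5 genes were higher. The counts that do not overlap were 1447 higher and 2516 lower after quantile normalization, which shifted the median of all genes by -0.169, and 1039 and 654 with a mean of at least 10 FPKM, where fewer genes are tested. They were 3399 and 1867 without the muscle-rich pair, and 2387 to 3223 and 1377 to 2922 without 1 library (2922 without Control replicate 1 and 1919 without Control replicate 3), where fewer libraries must separate. The hepatocyte covariate nearly coincides with the groups. The cause of the other shifts was not tested. Rps27, Rps27rt and Gstp2 missed the threshold only with all 12 libraries and with the hepatocyte covariate, and the other calls named here in 7 (Cygb, Ear2) to 14 (Apoc1, Pck1) of up to 19 alternatives.

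The difference changed sign with the hepatocyte covariate for Alb (-0.129), C3 (-0.826), Gstp1 (-1.120), H2-Q10 (-0.898), Krt8 (-1.581) and Krt19 (-3.131), and with array weights for Adgre1 (-0.171), Dck (-0.269) and Mki67 (-0.479). Leaving out 1 library at a time gave -0.081 to 1.169 for Adgre1, -0.295 to 0.283 for Dck, -0.647 to 0.814 for Mki67 and -0.430 to 0.080 for Pdgfra, the sign changing without Control replicate 1 (for Dck also without GC replicate 2), and -0.029 to 2.103 for Krt19, without Control replicate 2 or 3. Dck was at -0.088 after quantile normalization and Pdgfrb at 0.158 without the muscle-rich pair. Whether replicate numbers pair the samples is unknown, and correlations over so few libraries cannot settle it. Deviations of same-numbered libraries correlated at 0.155, 0.421 and -0.003 by the titles' numbers. The column names number the libraries otherwise and share only 2 and 4 between the groups, and those pairs correlated at -0.249 and -0.003. With the number as a replicate block, 23 genes were higher and 1 lower, 9 of the 17 calls among them, and GC replicates 1 and 2, but not 3, correlated best with the Control library of their own number. The medians of the type I interferon, class I, complement, fibroblast, hepatocyte, hypoxia and ribosomal protein lists kept their sign under the 2 scalings and each left-out library tried, whereas those of the mitosis, S phase, monocyte and gemcitabine lists did not. Depth is unknown, so no counting error is given.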

Other observations

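Extracellular proteases and their inhibitors lay wholly above Control in 11 of 28 tested genes (39.3%), with a median difference of 0.95. Serpine2, an inhibitor of thrombin and plasminogen activators, was at 48.4, 76.3 and 75.3 FPKM in GC, against 15.5, 11.9 and 6.06 FPKM in Control (difference 2.53 ± 0.34, limma adjusted p = 0.0582). The collagenase Mmp13 was at 8.55, 10.3 and 4.73 FPKM in GC and 2.06, 3.17 and 1.65 FPKM in Control. Of 24 senescence and secretory genes, 8 (33.3%) lay wholly above Control, with a median of 0.53, or 0.35 and 0.34 without Control replicates 1 and 3. Among them was Igfbp4, a binding protein of insulin-like growth factors, at 273, 325 and 378 FPKM in GC and 158, 165 and 120.4 FPKM in Control (difference 1.14 ± 0.21, limma adjusted p = 0.0731).

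Among genes lower in GC, the inducible heat shock gene Hspa1a was at 5.68, 5.57 and 6.25 FPKM in GC and 7.59, 19.0 and 35.6 FPKM in Control (difference -1.43 ± 0.48, limma adjusted p = 0.185). Osr1, a transcription factor of mesenchymal progenitors, was at 18.2, 21.8 and 26.7 FPKM in GC and 41.4, 44.0 and 49.7 FPKM in Control (difference -0.999 ± 0.191, limma adjusted p = 0.0736). With the ICB libraries in the fit, Osr1 was called lower (limma adjusted p = 0.0266).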
